A study of Arabidopsis thaliana with 3 samples.

Results

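Described here are 13 genes with a role or a label in auxin, cytokinin or gibberellin biology, chosen by words in their descriptions from the 2762 genes of a table comparing *dss1(I)* mutant with wild-type (WT) seedlings of *A. thaliana*. Auxin, cytokinin and gibberellin are plant hormones that set growth by cell division and cell expansion. Cytokinin is made as an inactive nucleotide, and LOG enzymes release the active base from it in a single step. Auxin acts through Aux/IAA proteins, repressors that are broken down when auxin binds its receptors, and it induces the short SAUR transcripts that promote cell expansion. GH3 enzymes join acidic hormones to amino acids, which stores, inactivates or activates them. GASA genes encode small cysteine-rich secreted proteins that respond to gibberellin.

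The question was how such genes differed between the genotypes under hydrogen peroxide, an oxidative stress. The mutant line, dss1(I)del25, is a homozygous CRISPR/Cas9 line that the labels call a knockdown, and WT was Columbia-0. Both groups were grown to 14 days and then moved to plates with 10 mM hydrogen peroxide for a further 3 days, so that no unstressed seedlings are in the comparison. Each genotype had 1 library of poly-A RNA from whole seedlings, with RNA gathered from several independent experiments. Data of the *dss1(V)* mutant were not analysed here. In whole seedlings, a smaller share of the cells that express a gene and less RNA per cell cannot be told apart.

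Genes were chosen from the 2762 genes that the authors' table holds for *dss1(I)* against WT, all of them called by the authors. A gene was kept if its description held a word for auxin, indole-3-acetic acid, SAUR, cytokinin, gibberellin, brassinosteroid, response regulator or strigolactone. Of 33 such genes, the 13 with an empty entry in the domain column of the table are described here. Of the 13, 7 carry an auxin word, 4 a cytokinin word and 2 a gibberellin word. None of them encodes a hormone transporter. None carries brassinosteroid, strigolactone or response regulator, so those pathways are represented only by the other genes given at the end. The column is headed as a transcription factor family, but it lists protein domains, and the other 20 word-matched genes have an entry there.

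For 3 of the 13 genes the hormone word was judged by hand not to match what is known of the protein. *AUL1*, described as an auxin-like protein, is the auxilin-like 1 gene, whose name refers to a clathrin uncoating cofactor and not to the hormone. *PBS3* belongs to the GH3 family but acts in the synthesis of salicylic acid, a defense hormone. AT3G61840 is described as a putative auxin response factor, while RefSeq lists it as a protein of unknown function. These 3 genes were kept, and counts are also given for the other 10. *DFL2*, of the GH3 family like *PBS3*, was left among the 10, and which hormone its enzyme acts on was not examined.

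Reads on genes numbered 11033843 in *dss1(I)* and 9394592 in WT, of which the genes of the table took 9.49% and 10.7%. The mutated gene, *AtDSS1(I)* (AT1G64750), kept 233 reads in *dss1(I)* against 807 in WT, for a log2 ratio of -2.00 (95% interval from -2.23 to -1.80). Its paralog *AtDSS1(V)* (AT5G45010) had 21 and 73 reads. Ratios are *dss1(I)* to WT, computed from the authors' scaled counts (reads adjusted to a common library size) after adding 1 to each. The ratios have no replicate check, since each genotype was sequenced in a single library, and no test was made. The exact Clopper-Pearson 95% intervals are computed from the reads alone and cover counting error only.

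Of the 13 genes, 10 were lower and 3 higher in *dss1(I)* than in WT. In the library where it was higher, the scaled count reached at least 10 for 12 of them, of which 9 had a log2 ratio of at most -1 and 3 of at least 1. Among the 2620 genes of the whole table that reached this count, 51% were lower and 48.1% higher by the same rule. When the ratios were instead centred on the median of the table, 2 of the 13 were lower and 3 higher by that much, with 18.1% of the changed genes of the table lower in place of 51.5%, and none of the 13 changed sign. The median log2 ratio was -1.36 over the 12 genes and -1.02 over the 2620. Since every gene of the table was called at a 2-fold change before it was deposited, only the direction and the size of the ratios could vary here. Without the 3 genes whose known role is elsewhere, 9 genes reached the count, 7 lower and 2 higher. The 13 genes took 4121 reads in *dss1(I)* and 3024 in WT, and *GASA14* alone held 2756 and 1006 of these.

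**Figure D1:**
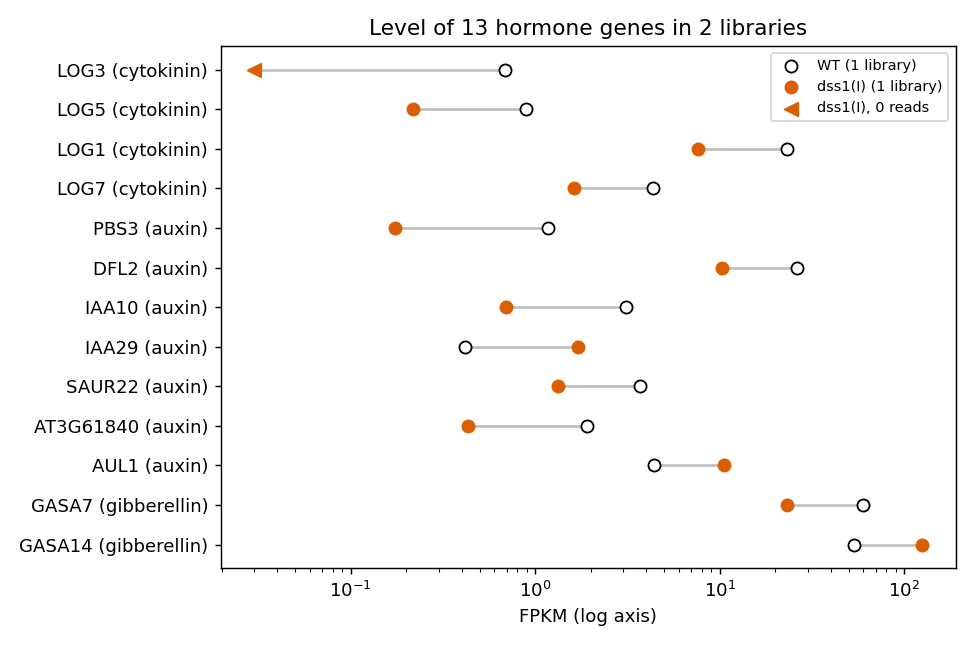
Level of each of the 13 genes in FPKM (reads scaled to gene length and library total, log axis) in the WT library (open circles) and the *dss1(I)* library (filled circles), 1 library each. *GASA14*, *AUL1* and *IAA29* lie higher in *dss1(I)*, and the arrow marks *LOG3*, which had 0 reads in *dss1(I)* and is drawn at the edge of the axis.

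The cytokinin genes all encode LOG enzymes, and all 4 were lower in *dss1(I)*. *LOG1* (AT2G28305, TAIR10 chr2:12081023-12084678, plus strand) was counted with 142 reads in *dss1(I)* against 368 in WT, or 7.62 and 23.2 FPKM. It was 3-fold lower in *dss1(I)*, a log2 ratio of -1.58 (interval from -1.88 to -1.31). *LOG1* made up 79.7% of the summed FPKM of the 4 genes in WT and 80.5% in *dss1(I)*, so that the sum of the group mostly shows this gene.

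*LOG7* (AT5G06300, chr5:1921548-1925407, minus strand) was counted with 23 reads in *dss1(I)* against 52 in WT, or 1.63 and 4.33 FPKM. Its log2 ratio was -1.35 (interval from -2.17 to -0.66). *LOG5* (AT4G35190, chr4:16746189-16748455, plus strand) was counted with 4 reads in *dss1(I)* against 14 in WT, which gave a log2 ratio of -1.78 (interval from -4.09 to -0.35). The intervals of *LOG1*, *LOG5* and *LOG7* overlap, and whether their ratios differ was not tested.

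*LOG3* (AT2G37210, chr2:15623928-15627032, minus strand) was counted with 0 reads in *dss1(I)* against 8 in WT, where its level was 0.685 FPKM. It is the only one of the 13 genes that did not reach a scaled count of 10. Its log2 ratio has no lower limit, and the upper limit of the interval, which takes in the counting error of both libraries, was -0.99. The 4 LOG genes together were counted with 169 reads in *dss1(I)* against 442 in WT, which gave a log2 ratio of -1.60 (interval from -1.87 to -1.35) from the reads scaled to a common library size. Their summed level was 9.47 FPKM in *dss1(I)* and 29.1 in WT.

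The longest stretch that a LOG transcript shared with a transcript of another gene in RefSeq was 41 bases, between *LOG3* and *LOG4*. For *LOG1* it was 30 bases, for *LOG7* 25 and for *LOG5* 22. By the RefSeq gene models *LOG1* has 6 exons and the other 3 genes have 7. *LOG4* and *LOG8* are not among the genes of the table.

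The 300 bases upstream of the annotated gene start were read from the RefSeq assembly TAIR10.1, in which all 13 genes have the same start and end as in the deposited table. They are shown for *LOG1* and *LOG7*, the LOG genes with the most reads, and for *SAUR22*, the 1 gene of the 13 whose window holds the classical auxin response element TGTCTC. Capitals mark TGTCNN, the core of that element, on either strand (a match on the other strand reads NNGACA here). The windows are chr2:12080723-12081022 (plus strand), chr5:1925408-1925707 (minus strand) and chr5:5975088-5975387 (minus strand), from 5′ to 3′.
LOG1: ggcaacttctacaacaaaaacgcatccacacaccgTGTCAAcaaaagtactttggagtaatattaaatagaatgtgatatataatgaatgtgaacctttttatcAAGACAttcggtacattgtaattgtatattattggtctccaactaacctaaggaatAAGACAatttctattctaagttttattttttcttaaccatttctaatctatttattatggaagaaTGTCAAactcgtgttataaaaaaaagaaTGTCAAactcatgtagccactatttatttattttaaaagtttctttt
LOG7: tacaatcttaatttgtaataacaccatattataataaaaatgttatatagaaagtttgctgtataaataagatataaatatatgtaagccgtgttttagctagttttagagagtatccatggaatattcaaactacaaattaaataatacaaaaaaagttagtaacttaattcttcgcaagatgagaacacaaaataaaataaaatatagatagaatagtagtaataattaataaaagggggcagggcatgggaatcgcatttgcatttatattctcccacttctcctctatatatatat
SAUR22: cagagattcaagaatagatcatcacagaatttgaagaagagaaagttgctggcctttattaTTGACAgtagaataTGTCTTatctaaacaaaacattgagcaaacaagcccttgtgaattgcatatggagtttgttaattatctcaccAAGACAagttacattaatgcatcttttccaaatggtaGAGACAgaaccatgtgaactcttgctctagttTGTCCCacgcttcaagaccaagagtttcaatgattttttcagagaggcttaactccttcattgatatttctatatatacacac

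There were 5 matches to TGTCNN in the window of *LOG1* and 0 in that of *LOG7*, and both genes were lower in *dss1(I)*. A relation of matches to ratios was not tested. The *SAUR22* window also holds 5, and 1 of them is the full element TGTCTC, on the other strand, at position -115 from the gene start. At least 1 match to TGTCNN was found in 11 of the 13 windows (84.6%) and in 80.6% of the windows of 27443 protein-coding genes. At least 5 were found in 4.25% of these windows. TGTCTC was found in 1 of 13 (7.69%) against 13% of all windows, and TGTCGG in 1 of 13, upstream of *AUL1*, against 4.91%. TGTCTC and TGTCGG are both also matches to TGTCNN. The G-box CACGTG was found in 0 of the 13 windows and in 7.09% of all. The brassinosteroid response letters CGTGCG (1.78% of all windows) and the related CGTGTG (6.11%) were also found in 0 of the 13. The windows of *DFL2* and *IAA10* lie partly within neighbouring genes. All motifs were searched on both strands, and a match describes letters and not a binding site.

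Of the 7 genes with an auxin word, 5 were lower and 2 higher in *dss1(I)*. The Aux/IAA genes, which act in the response, went opposite ways. *IAA29* (AT4G32280, chr4:15583332-15584903, plus strand) was counted with 24 reads in *dss1(I)* against 5 in WT, or 1.7 and 0.415 FPKM. Its log2 ratio was 1.86 (interval from 0.63 to 3.79). *IAA10* (AT1G04100, chr1:1059470-1061209, plus strand) was counted with 10 reads in *dss1(I)* against 38 in WT, or 0.693 and 3.09 FPKM, a log2 ratio of -2.03 (interval from -3.31 to -1.11). The intervals lie on opposite sides of 0. Summed, the genes had 34 and 43 reads, a log2 ratio of -0.56 whose interval (from -1.25 to 0.13) includes 0. *IAA10* overlaps AT1G04105 on the opposite strand, and the longest stretch that their transcripts share is 336 bases. Whether strand was used in the counting is not given in the sources used here, so reads of this pair cannot be told apart.

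*SAUR22* (AT5G18050, chr5:5974341-5975087, minus strand), of a SAUR group that promotes cell expansion, was counted with 11 reads in *dss1(I)* against 26 in WT, or 1.33 and 3.7 FPKM. Its log2 ratio was -1.38 (interval from -2.62 to -0.39). It is a gene of 1 exon, and its transcript shares a stretch of 53 bases with *SAUR21* (AT5G18030), so its count is uncertain if reads of that stretch were divided among the pair. AT3G61840 (chr3:22892466-22893304, plus strand) was counted with 4 reads in *dss1(I)* against 15 in WT, which gave a log2 ratio of -1.87 (interval from -4.17 to -0.47). With so few reads the intervals of both genes include a change of less than 2-fold.

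Both GH3 genes were lower in *dss1(I)*. *DFL2* (GH3.10, AT4G03400, chr4:1497536-1501599, minus strand), DWARF IN LIGHT 2, linked to hypocotyl growth in light, was counted with 400 reads in *dss1(I)* against 867 in WT. Its level was 10.3 FPKM in *dss1(I)* and 26.2 in WT. Among the auxin and cytokinin genes this WT level was the highest, followed by that of *LOG1*. The log2 ratio of *DFL2* was -1.33 (interval from -1.51 to -1.16). A stretch of 432 bases of its transcript overlaps AT4G03410 on the opposite strand, which is not among the genes of the table, so the limit on strand holds here too.

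*PBS3* (GH3.12, AT5G13320, chr5:4267456-4271064, plus strand) was counted with 5 reads in *dss1(I)* against 29 in WT, or 0.173 and 1.18 FPKM. Its log2 ratio of -2.52 (interval from -4.48 to -1.37), or 5.73-fold lower, was the lowest among the 12 genes that reached the minimum count. Its interval overlaps that of *DFL2*, and whether the ratios of the GH3 genes differ was not tested.

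The gibberellin genes also went opposite ways, and they had the highest levels of the 13. *GASA14* (AT5G14920, chr5:4826141-4828384, plus strand), a gene linked to leaf expansion and to tolerance of reactive oxygen, was counted with 2756 reads in *dss1(I)* against 1006 in WT. Its level was 125 FPKM in *dss1(I)* and 53.6 in WT, with a ratio of 1.24 on the log2 scale (interval from 1.13 to 1.34). *GASA7* (AT2G14900, chr2:6404131-6405352, plus strand) was counted with 184 reads in *dss1(I)* against 400 in WT, or 23.3 and 59.5 FPKM. Its log2 ratio was -1.33 (interval from -1.60 to -1.08). Per length, *GASA7* was slightly above *GASA14* in WT and far below it in *dss1(I)*. No stretch of 20 or more bases of *GASA14* occurs in another transcript.

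*AUL1* (AT1G75310, chr1:28260801-28266323, plus strand) was counted with 558 reads in *dss1(I)* against 196 in WT, or 10.6 and 4.38 FPKM. Its log2 ratio was 1.29 (interval from 1.05 to 1.53). It is the longest of the 13 genes, with 4758 bp. It overlaps the ornithine carbamoyltransferase gene AT1G75330 on the opposite strand, with a longest shared stretch of 65 bases of transcript and the same limit.

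**Figure D2:**
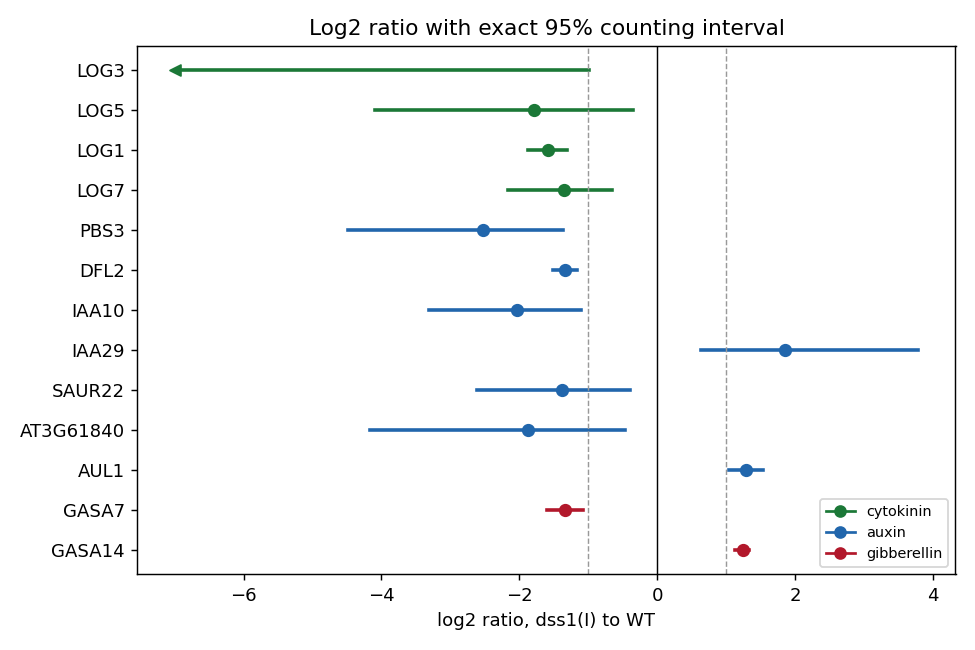
Log2 ratio of *dss1(I)* to WT (points, pseudocount of 1) with the exact 95% interval of the read counts (lines, counting error only), coloured by the hormone named in the description. Dashed lines mark 2-fold, and *LOG3* has an upper limit of -0.99 and no lower limit. All 13 intervals lie on 1 side of 0, and 7 of them lie wholly beyond 2-fold, as do 36.2% of those of the table. The genes were called from these same reads, so intervals clear of 0 are no further evidence of a change.

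The precision differed widely with depth. The interval spanned 0.21 on the log2 scale for *GASA14* and 3.73 for *LOG5*. Those that lay wholly beyond 2-fold were the intervals of *LOG1*, *DFL2*, *PBS3*, *IAA10*, *GASA7*, *GASA14* and *AUL1*. Of all 2762 genes of the table, 36.2% had such an interval. The median level of the 13 genes was 1.63 FPKM in *dss1(I)* and 3.7 in WT, against 4.29 and 4.49 over the table.

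The direction of the called genes of this table follows their length, so each gene was set beside other called genes of similar length, in 8 length classes of about equal number. The 13 genes are short, with a median of 1308 bp against 1703 bp for the table. Over the length classes of the 13, on average 62.9% of the other called genes were lower in *dss1(I)*, against 76.9% of the 13 and 51.3% of all other genes of the table. At that share 8.18 of 13 genes would be lower, and 10 were. For the 10 genes without the doubtful names the length classes gave 70%. Of the 9 of these that reached the minimum count 7 were lower, and *LOG3*, which did not reach it, was lower too. Of the 9 genes of up to 1703 bp, 8 were lower, and of the 4 longer ones 2 were lower. In the classes up to 1703 bp, 71.4% to 90.7% of other called genes were lower. In the longer classes 0.29% to 47.8% were.

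For the LOG genes, the share of other called genes that were lower at the same length was 71.4% for *LOG1* and *LOG5* and 83.2% for *LOG3* and *LOG7*. Their direction was therefore that of most called genes of their length. *GASA7* and *SAUR22* lay in the shortest class, where 85.8% were lower, and AT3G61840 in a class with 90.7%. *AUL1* lay in the longest, where 0.29% of 345 genes were lower.

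The genes that went against their length were *DFL2*, *PBS3* and *IAA29*. *DFL2* is 3518 bp long, and 4.94% of the 344 other called genes of its class were lower in *dss1(I)*. *PBS3*, with 2619 bp, was in a class where 26.7% were lower, and 97.7% of that class had a higher ratio than *PBS3*. *IAA29*, with 1283 bp, was higher in a class where 83.2% were lower, and 8.24% of that class had a higher ratio. *GASA14* lay in a class with nearly even directions, where 47.8% were lower. These shares describe single genes, and what sets the relation with length was not tested.

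**Figure D3:**
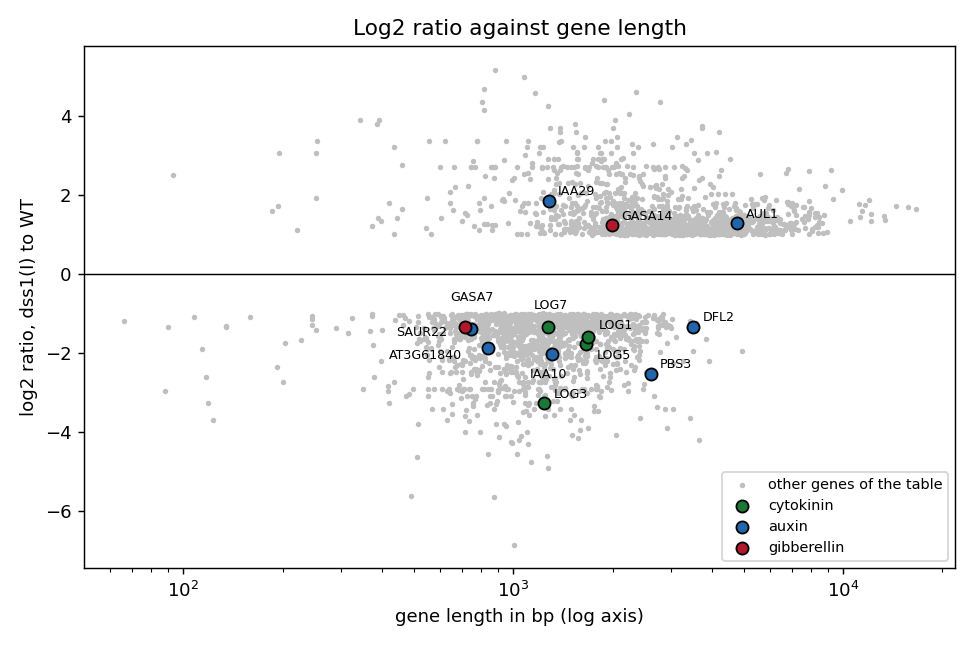
Log2 ratio of *dss1(I)* to WT against the authors' gene length in bp (log axis). Shown are the genes of the table (grey) and the 13 hormone genes (coloured by hormone, named). Short called genes lie mostly below 0 and long ones above, *DFL2* and *PBS3* lie below 0 among long genes, and *IAA29* lies above 0 among short ones. The point of *LOG3* depends on the pseudocount.

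Other genes of these pathways were taken from a list of 118 core genes of hormone synthesis, transport, perception and response, which also holds kinases, cytochrome P450s and transcription factors. The table holds 20 of them (16.9%), including *LOG1* and *LOG7*, against 9.77% of all 27443 protein-coding genes with an upstream window. Expression was not matched between these sets, so nothing was read from the difference. Of the 18 others, 14 were higher in *dss1(I)* by a log2 ratio of at least 1 and 3 lower by at least as much, at lengths where on average 31.2% of called genes were lower. The 3 were *GA2OX6*, *AHP4* and *MAX4*, and the brassinosteroid synthesis gene *DWF4* had a log2 ratio just short of 1 in size. The 20 word-matched genes with a domain entry divide into 15 higher and 5 lower, with 52.8% lower at their lengths. A word match does not show a hormone role. *APRR5* and *APRR7*, both higher and matched by words only, were not checked for such a role.

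In the cytokinin pathway, 3 of the 4 core genes beside the LOG family were higher in *dss1(I)*. *CYP735A1*, which makes trans-zeatin forms, was counted with 12 reads in *dss1(I)* against 1 in WT, which gave a log2 ratio of 2.54 (interval from 0.61 to 8.79). The cytokinin oxidase gene *ATCKX1* had 14 and 1 reads, that is, 2.75 on the log2 scale (interval from 0.87 to 8.99). The exporter gene *ABCG14* had 486 and 208 reads, the receptor gene *AHK4* 185 and 74, and the cytokinin-induced response regulator gene *ARR15* 27 and 6. *AHK4* lay in the longest class, where 0.29% of called genes were lower. *ABCG14* lay in a class with 26.7% and *ARR15* in a class with 90.7%. *ATCKX1* and *ARR15* are not in the core list and were chosen after their values were seen. The phosphotransfer gene *AHP4* had 54 and 108 reads.

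In the gibberellin pathway the synthesis genes *GA20OX1* (21 reads in *dss1(I)* and 3 in WT) and *GA20OX2* (28 and 2) were higher, and the breakdown gene *GA2OX6* (27 and 118) was lower. The log2 ratio was 2.27 for *GA20OX1* (interval from 0.85 to 4.98), 3.09 for *GA20OX2* (interval from 1.60 to 6.70) and -2.30 for *GA2OX6* (interval from -3.01 to -1.73). These gibberellin genes lay in a class where 71.4% of called genes were lower. The table holds 3 of the 14 core genes of gibberellin synthesis and breakdown and 0 of 10 of perception and response. Of the auxin core genes it holds 0 of 16 for synthesis, 2 of 14 for transport and 4 of 12 for perception and response. Among auxin genes, those higher were the receptor gene *AFB1* (552 and 207 reads), the response factor genes *ARF6*, *ARF7* and *ARF19* (log2 ratios of 1.05, 1.09 and 1.57) and the transport genes *ABCB19* and *BIG* (1.34 and 1.70). *ARF7*, *ARF19*, *ABCB19* and *BIG* lay in the longest class, where 0.29% of called genes were lower. *ARF6* lay in a class with 4.94% and *AFB1* in a class with 26.7%. Their direction was therefore that of most called genes of their length. Of 7 word-matched SAUR genes with a domain entry, 3 were higher and 4 lower. They lay in classes where 71.4% to 90.7% of called genes were lower. *SAUR22* was lower too, in a class with 85.8%. Of the 4 brassinosteroid genes, 3 were higher: the receptor gene *BRI1* (2291 and 867 reads), the synthesis gene *BR6OX2* (551 and 210) and the breakdown gene *BAS1* (87 and 36). *BRI1* also lay in the longest class, *BAS1* in a class with 26.7% lower and *BR6OX2* in a class with 47.8%. The synthesis gene *DWF4* was lower (124 and 214 reads), and the interval of its log2 ratio ran from -1.34 to -0.68. The strigolactone synthesis gene *MAX4* had 31 and 61.

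**Figure D4:**
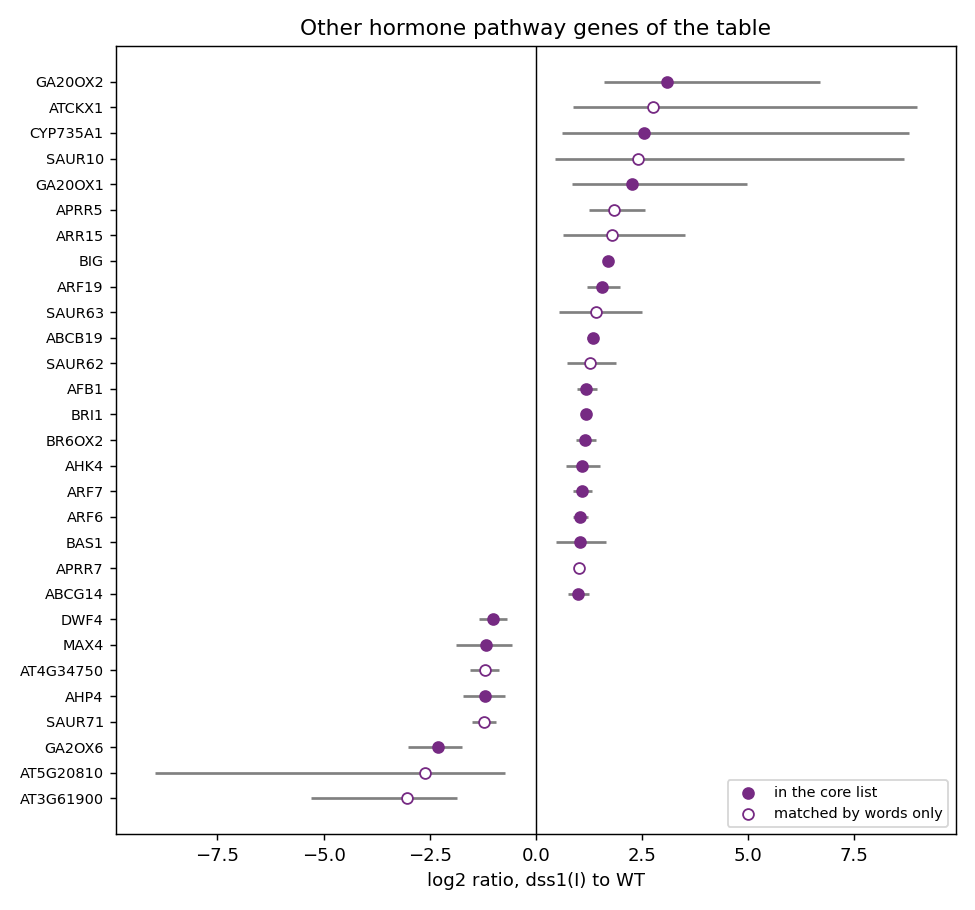
Log2 ratio of *dss1(I)* to WT (points, pseudocount of 1) with the exact 95% interval of the read counts (lines). The 29 are other genes of the table, either in the list of core genes (filled) or matched by words only (open). Of the 29, 21 lie above 0 and 8 below.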

How the data were processed

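RNA-seq of *A. thaliana* seedlings was analysed from the authors' table of *dss1(I)* against WT. Per the study's methods, HISAT2 was used to map the reads left by fastp to TAIR10, and featureCounts gave the reads of each gene. Whether strand was used is not given in the sources used here. The deposited counts are raw reads, the deposited scaled counts are a signal adjusted in edgeR to a common library size, and the deposited FPKM are per length of the gene and per total of the library. The columns with the authors' own fold changes, p-values and adjusted p-values were not used, and the number of per-sample columns left out is 0.

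A pseudocount of 1 was added before the log2 ratio was taken, and genes entered a count when the larger of their scaled counts was 10 or more. A log2 ratio of at least 1 in size counted as higher or lower. The interval is exact (Clopper-Pearson, 95%) on the raw reads with the scaling of each library, without a pseudocount, and its coverage was tested on simulated data. It covers counting error only, and PCR copies are not independent molecules. Library totals were taken from counts, FPKM and gene length.

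The genes, the list of core genes and the groups were chosen with earlier results of these data known. Hormones were assigned from words in the descriptions and roles by hand from descriptions and names. Any of the 13 genes that reached the minimum could be named, with ratios in groups of up to 6, and of other genes the mutated gene, its paralog and the core list. *LOG3* and the other genes named beyond this rule were added after their values were seen. Some symbols, such as *LOG3*, were taken from RefSeq. Upstream sequences, overlaps and shared stretches (at least 20 bases, longest transcript of each gene, both strands) were taken from RefSeq TAIR10.1. Alternatives were other pseudocounts, minimums, scalings, thresholds and length classes. Calculations used scipy 1.17.1, pandas 2.3.3 and numpy 2.4.6 in Python 3.11.15, and figures matplotlib 3.10.9.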

Additional observations from a re-analysis of the deposited data

How the results depend on the processing

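No paired analysis was possible because neither genotype has a further library, and for the same reason no replicate could be left out. No gene of the 13 changed sign under the other pseudocounts, minimums, scalings or thresholds. Since the table holds only genes called at a 2-fold change, this is no sign of stability. The main counts were 12 genes past 2-fold, 3 higher and 9 lower. A minimum scaled count of 50 left 6 genes, 4 of them lower, with 1 lower auxin gene in place of 5, because fewer genes reached it. At this minimum 954 changed genes of the whole table were higher and 957 lower, or 50.1% lower. A log2 ratio of at least 2 left 2 genes, both lower (*PBS3* and *IAA10*), and 0 higher. At this threshold 165 genes of the whole table were higher and 323 lower, or 66.2% lower. With 2 genes left, no difference from that share can be read. An interval wholly beyond 2-fold left 7 genes, 5 of them lower. Of the table's genes counted by this rule, 58.6% were lower. Scaling by the median ratio over the table raises log2 ratios by up to about 1.02, because that median falls among genes called lower. It left 5 genes, 3 higher and 2 lower, with 2 lower auxin, 0 lower cytokinin and 0 lower gibberellin genes, and 18.1% of the table's changed genes lower in place of 51.5%. Under it the log2 ratio was -0.56 for *LOG1*, -0.36 for *LOG7*, -0.31 for *DFL2* and *GASA7*, -1.06 for *IAA10*, 2.31 for *AUL1* and 2.26 for *GASA14*. With 20 or 4 length classes, the share of other called genes lower at the lengths of the 13 was 61.6% and 62.2% in place of 62.9%. Depth limits the genes with few reads: *LOG3*, *LOG5*, AT3G61840, *PBS3*, *IAA10*, *IAA29* and *SAUR22* had 11 or fewer reads in their lower library.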
